A study of Mus musculus with 12 samples.

Results

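The VEGF ligands and receptors described here were 9 genes named by symbol, of 54119 genes with RNA estimates. They comprised 4 ligands (Vegfa, Vegfb, Vegfc, and Pgf), 3 receptor tyrosine kinases (Kdr, Flt1, and Flt4), and 2 co-receptors (Nrp1 and Nrp2). All 9 were measured in RNA-seq libraries of blood vessels prepared from the forebrains of wild type C57BL6 mice aged 2 to 3 months. The 4 groups were a PBS control and LPS, the bacterial endotoxin, given at 10 mg/kg into the peritoneum and followed for 15 min, for 30 min, or for 4 h. Each group had 3 libraries, and a library pooled the vessels of 1 male and 1 female mouse, so that differences between single mice and between the sexes could not be seen. The vessels were what a mesh retained after the meninges were taken off and the forebrain was homogenized. They therefore carried endothelial cells together with mural and other attached cells.

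VEGF-A is the main growth factor for blood vessels and raises their permeability through KDR (VEGFR2), the receptor that carries most of its signal in endothelial cells. FLT1 (VEGFR1) binds VEGF-A, VEGF-B, and PlGF tightly but signals weakly, and a soluble form of it acts as a decoy that keeps ligand from KDR. VEGF-C acts mainly through FLT4 (VEGFR3), best known from lymphatic vessels and sprouting capillaries, and the neuropilins NRP1 and NRP2 bind both VEGFs and class 3 semaphorins.

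Levels are given in CPM, counts scaled to a common library total with TMM factors, for comparisons of 1 gene between libraries, and in TPM, which also divides by transcript length, for comparisons between genes. A gene was said to rise or fall only where edgeR's fold test (glmTreat) placed its change beyond 1.5-fold at an adjusted p below 0.05 over all 19150 genes tested. All 9 members passed the filter on low counts. The libraries held 18.3 to 25.9 M fragments. Endothelial markers were present in each library, with means in PBS of 2362 CPM for Cldn5, 821 CPM for Pecam1, and 486 CPM for Cdh5. The summed CPM of 18 endothelial markers was 14009.5 to 14371 in PBS, 14523 to 14612 at 15 min, 15347 to 15398 at 30 min, and 10091 to 10135 at LPS 4 h. Within this sum Slc2a1 went from a mean of 2735 CPM in PBS to 4455 at 15 min and 5514 at 30 min. Cldn5 went from 2362 to 1420 and 1269 CPM. A test against no change, without the fold limit, placed 5 markers higher and 10 lower at 15 min, and 6 and 10 at 30 min. Of all genes, 38.6% and 36.9% passed it at these times. In the bulk RNA, fewer cells of a type and less RNA per cell cannot be told apart.

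In resting vessels, Flt1 had the highest level of the 9 genes. Its TPM in the 3 PBS libraries was 448 to 468, against 92.6 to 99.4 for Kdr and 25.3 to 26.9 for Flt4. Among the ligands Vegfa stood at 61.6 to 65.6 TPM, Vegfb at 41.2 to 47.3, Vegfc at 40.1 to 42.4, and Pgf at 18.6 to 20.1. TPM here sums all transcripts of a gene, coding or not. Of the Vegfa TPM in PBS, the main coding forms Vegfa-202 and Vegfa-201 held means of 30.7% and 18.9%, and retained-intron forms held most of the rest. Nrp1 had 37.3 to 44.1 TPM and Nrp2 had 20.2 to 22.6. Ordered by mean TPM in PBS, the genes ran Flt1, Kdr, Vegfa, Vegfb, Vegfc, Nrp1, Flt4, Nrp2, and Pgf, and only the neighbours Vegfb and Vegfc, and Vegfc and Nrp1, had overlapping ranges. At LPS 4 h the order was Flt1, Pgf, Vegfa, Flt4, Vegfb, Nrp2, Kdr, Nrp1, and Vegfc, with no neighbours overlapping, so that Kdr had gone from the second place to the seventh and Pgf from the ninth to the second. The place of Vegfa in both orders depended on counting its retained-intron forms. In PBS Vegfa-202 and Vegfa-201 had mean TPM of 19.4 and 11.8. The coding forms Vegfb-201 and Vegfb-202 had 27.7 and 16.5, and Vegfc-201 had 38.4. At LPS 4 h Vegfa-202 and Vegfa-201 had 8.94 and 6.23, against 27.1 for Flt4-201. In main coding forms alone Vegfa thus stood below Vegfb and Vegfc in PBS and below Flt4 at 4 h.

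**Figure D1:**
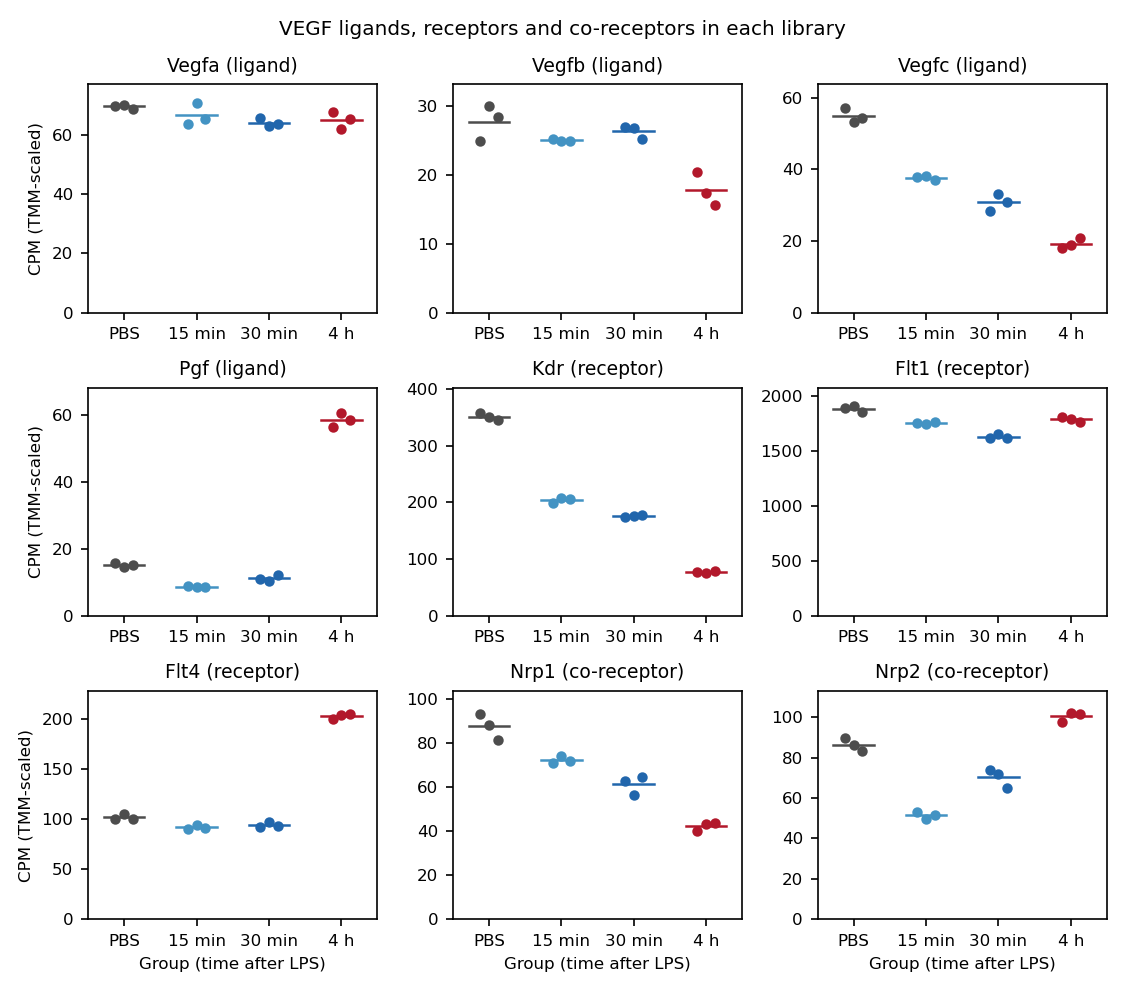
CPM (y axis, from 0, its range set for each gene) of the 9 genes in each of the 12 libraries by group, with points for single libraries and a line for the mean of 3. Kdr, Vegfc, and Nrp1 stood lower at each later time, whereas Pgf and Flt4 stood highest at LPS 4 h.

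Kdr fell at each time point. It measured 358, 351, and 345 CPM in the PBS libraries, 198, 207, and 206 at LPS 15 min, 174, 177, and 179 at 30 min, and 77.9, 75.8, and 78.5 at 4 h. No 2 groups overlapped. Kdr was at 58.0% of its PBS level 15 min after LPS (log2 fold change -0.79, SE 0.027, adjusted p = 1.10e-06). It was at 50.2% after 30 min (-0.99, SE 0.028, adjusted p = 4.23e-12). After 4 h 22.01% was left (-2.18, SE 0.031, adjusted p = 3.07e-23). It was the member with the largest fall at 30 min and at 4 h, whereas at 15 min Pgf had a slightly larger estimate (-0.81). A single coding transcript, Kdr-201, held 99.8% of the TPM of the gene in PBS and 99.7% at LPS 4 h.

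Flt1, the other receptor for VEGF-A, did not pass the fold test at any time. Its level was 1889.7, 1908, and 1857 CPM in PBS, 1754, 1746, and 1768 at 15 min, 1618, 1653, and 1623 at 30 min, and 1813, 1788, and 1767 at 4 h. Every LPS library lay below the PBS libraries, but by little: the group levels were 93.1%, 86.5%, and 94.9% of PBS. The 95% intervals of the log2 difference were -0.14 to -0.06 at 15 min, -0.25 to -0.17 at 30 min, and -0.11 to -0.04 at 4 h, so that each lay within the fold limit of 1.5.

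Flt4 rose at the last time. It had 101, 106, and 101 CPM in PBS, 90.0, 94.3, and 91.3 at LPS 15 min, 92.5, 97.0, and 92.8 at 30 min, and 200.3, 205, and 206 at 4 h. The 4 h libraries stood apart from the other 9. At 15 and 30 min it was at 89.7% and 92.0% of PBS and not past the test, and at 4 h it rose 1.99-fold (log2 0.99, SE 0.034, adjusted p = 2.45e-11). With scaling by library size alone the difference was 0.29 and was not past the test.

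The make-up of the receptor RNA moved with these changes. Kdr supplied 16.3% to 16.8% of the summed receptor TPM in the PBS libraries, 10.6% to 11.2% at 15 min, 10.1% to 10.3% at 30 min, and 4.05% to 4.30% at 4 h. Flt4 went from 4.38% to 4.54% in PBS to 9.91% to 10.4% at 4 h, so that at 4 h Flt4 exceeded Kdr in every library. Flt1 supplied the rest, 78.8% to 79.2% in PBS and 85.3% to 85.9% at 4 h.

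**Figure D2:**
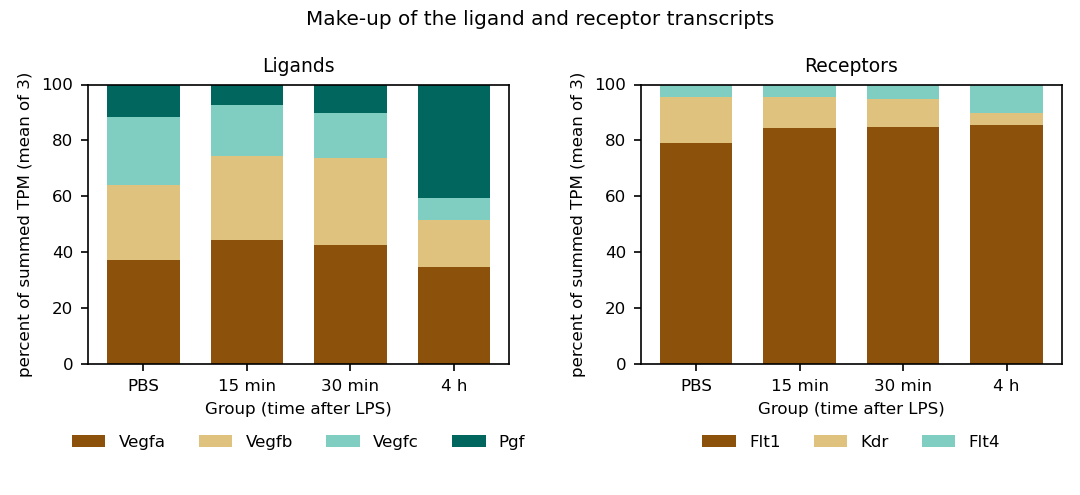
Stacked bars of the mean share (percent, 3 libraries a group) of each ligand in the summed TPM of the 4 ligands (left) and of each receptor in that of the 3 receptors (right). The Pgf part went from 11.6% in PBS to 40.7% at LPS 4 h, and the Kdr part from 16.5% to 4.17%. TPM sums all transcripts of a gene, and retained-intron forms took a large part of that of Vegfa.

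Among the ligands, Pgf had the largest rise. The gene codes for placental growth factor, a ligand of FLT1 and the neuropilins that does not bind KDR. Its level was 16.0, 14.5, and 15.3 CPM in PBS, 8.85, 8.67, and 8.64 at LPS 15 min, 11.1, 10.4, and 12.3 at 30 min, and 56.6, 60.6, and 58.7 at 4 h. No groups overlapped, and the early libraries lay below PBS while the late ones lay above. At 15 min Pgf fell to 57.2% of PBS (log2 -0.81, SE 0.079, adjusted p = 0.0324), a call that was lost with DESeq2 (adjusted p = 0.213) and on leaving out any 1 of 5 of the 6 libraries compared (adjusted p up to 0.126). The call was also lost in the edgeR fold test without the filter on low counts (adjusted p = 0.0655) and with limma on the deposited gene table. At 30 min it was at 73.8% of PBS and not past the test. At 4 h it rose 3.85-fold (log2 1.94, SE 0.070, adjusted p = 5.71e-15).

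Vegfc fell at 30 min and at 4 h. It measured 57.0, 53.2, and 54.4 CPM in PBS, 37.9, 38.02, and 37.1 at 15 min, 28.4, 33.1, and 30.8 at 30 min, and 17.96, 18.9, and 20.97 at 4 h, again with no overlap between groups. The log2 difference from PBS was -0.54 at 15 min (SE 0.057), which was not past the fold test. It was -0.83 at 30 min (SE 0.059, adjusted p = 0.00118). At 4 h 35.2% of the PBS level was left (-1.51, SE 0.068, adjusted p = 3.20e-12). Thus Vegfc fell at 4 h while the gene of its receptor, Flt4, rose on the same scale.

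Vegfa did not pass the test at any time. It measured 69.6, 70.1, and 68.7 CPM in PBS, 63.5, 70.7, and 65.1 at LPS 15 min, 65.6, 62.8, and 63.6 at 30 min, and 67.5, 61.8, and 65.4 at 4 h. The 15 min libraries overlapped with PBS, and those of 30 min and 4 h lay just below. Its log2 differences were -0.07, -0.12, and -0.10, and the interval at 4 h reached from -0.20 to -0.00085. Retained-intron transcripts took a large part of the Vegfa TPM, and among the coding forms Vegfa-202 held 27.9% to 34.3% of the TPM of the gene in PBS and 23.3% to 33.4% at 4 h.

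Vegfb, which binds FLT1 and NRP1 and is linked to fatty acid uptake by endothelium, had 24.9, 30.0, and 28.4 CPM in PBS, 25.2, 25.0, and 25.0 at LPS 15 min, and 27.0, 26.8, and 25.3 at 30 min. At 4 h it had 20.5, 17.4, and 15.6 CPM, below every other library. The 4 h level was 64.1% of PBS (log2 -0.64, SE 0.087), which was not past the fold test (adjusted p = 0.246). Without 1 library, LPS 4 h replicate 1, the log2 difference was -0.75 and passed (adjusted p = 0.0399).

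The co-receptors differed from each other. Nrp1 had 93.3, 88.1, and 81.2 CPM in PBS, 70.8, 74.0, and 71.6 at LPS 15 min, 62.6, 56.5, and 64.5 at 30 min, and 39.9, 43.4, and 43.4 at 4 h. Each group lay wholly below the one before. The log2 differences from PBS of -0.28 and -0.52 at 15 and 30 min were not past the fold test, and at 4 h Nrp1 fell to 48.3% of PBS (-1.05, SE 0.059, adjusted p = 4.21e-08). Nrp2 had 89.9, 86.3, and 83.4 CPM in PBS and 53.1, 49.4, and 51.6 at 15 min. That early fall to 59.4% of PBS (log2 -0.75, SE 0.047, adjusted p = 0.00639) was not past the threshold without LPS 15 min replicate 2 (adjusted p = 0.0516). It was also lost in the fold test of limma on the deposited gene table (adjusted p up to 0.103). At 30 min the Nrp2 libraries were back at 74.1, 71.8, and 65.0 CPM, still below PBS, and at 4 h they reached 97.8, 102, and 101 CPM, above PBS. Neither later difference (-0.30 and 0.22) was past the test.

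**Figure D3:**
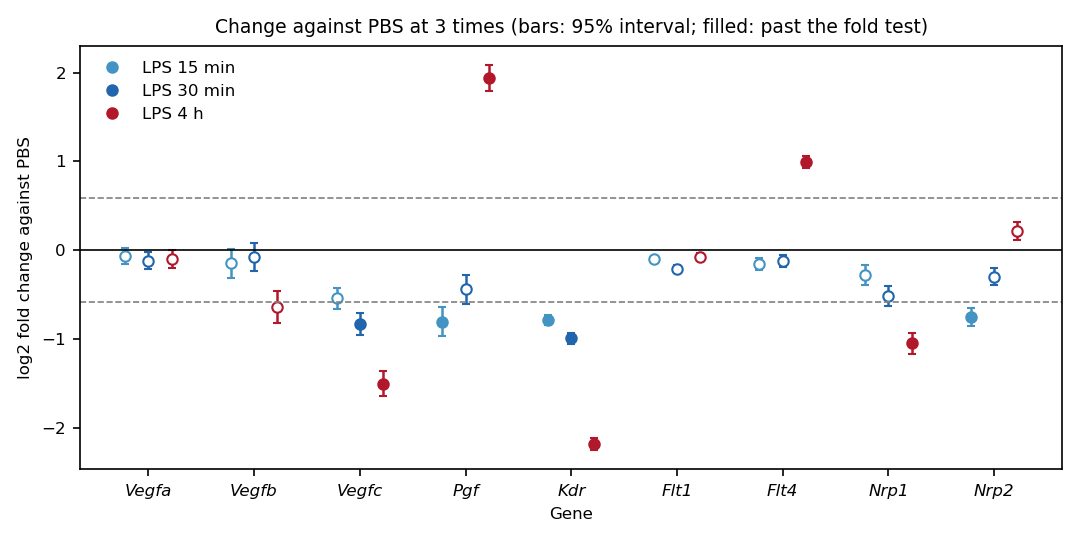
Log2 fold change against PBS (y axis) of each gene at the 3 times after LPS, with bars for the 95% interval, filled points for genes past the fold test, and dashed lines at 1.5-fold. Of the 9 genes, 3, 2, and 5 were past the test at the 3 times, and Pgf and Flt4 were the genes that rose.

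Counted together, 3 of 9 members fell and none rose at LPS 15 min (Pgf, Kdr, and Nrp2), where 4.18% of all genes tested were called, 0.872% lower and 3.31% higher. The median log2 difference of the members was -0.28 against -0.0021 for all genes, and all 9 estimates were below 0. At 30 min 2 members fell (Vegfc and Kdr) and none rose, beside 4.58% of all genes (0.799% lower and 3.78% higher), with a median of -0.30. At LPS 4 h 5 members were called, 2 higher (Pgf and Flt4) and 3 lower (Vegfc, Kdr, and Nrp1), beside 32.8% of all genes (19.0% higher and 13.8% lower), and the median of the members was -0.10. In the test against no change, which has no fold limit, 7, 8, and 8 members passed at the 3 times, beside 38.6%, 36.9%, and 68.5% of all genes. The libraries of the LPS group and of PBS did not overlap for 7, 8, and 9 members, beside 49.3%, 46.7%, and 70.9% of all genes. The 3 comparisons share the PBS libraries.

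Between the LPS times, 0 members were past the edgeR fold test from 15 to 30 min, beside 4.65% of all genes. DESeq2 also called 0, and no member had an unadjusted p under 0.05 in the fold test. In the edgeR test against no change 6 members passed, beside 37.4% of all genes. The largest estimates were those of Nrp2 (log2 0.45, SE 0.049) and Pgf (0.37, SE 0.084) upward and of Vegfc (-0.29, SE 0.061) downward. From 30 min to 4 h, 3 members were called, beside 28.6% of all genes (16.9% higher and 11.8% lower), and 8 passed the test against no change, beside 65.3%. Pgf rose 5.21-fold, Flt4 rose 2.16-fold, and Kdr fell to 43.9% of its 30 min level.

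The ratio of 2 genes within a library does not depend on how libraries are scaled. Kdr TPM was 0.209 of Flt1 TPM in PBS (mean of the log2 ratios -2.26, SD 0.025, n = 3), 0.129 at LPS 15 min, 0.120 at 30 min, and 0.0487 at 4 h (log2 -4.36, SD 0.046). The 4 groups did not overlap, and an exact permutation test of the differences among the 4 groups gave p = 6.49e-05, the smallest that the 369600 assignments allow (adjusted p = 0.00026 over the 4 within-library values tested). Vegfa TPM, a large part of it from retained-intron transcripts, was 0.656 of Kdr TPM in PBS, 1.17 at 15 min, 1.22 at 30 min, and 2.98 at 4 h. The 15 and 30 min libraries overlapped here and in the next ratio (exact permutation p = 0.00013, adjusted p = 0.00026). In its main coding forms alone Vegfa did not exceed Kdr at 15 or 30 min. Vegfa-202 and Vegfa-201 had mean TPM of 16.2 and 13.5 at 15 min, against 55.3 for Kdr-201. At 30 min they had 14.5 and 8.30, against 39.0, and at 4 h 8.94 and 6.23, against 11.2. Nrp1 TPM was 0.425 of Kdr TPM in PBS, 0.606 and 0.592 at 15 and 30 min, and 0.935 at 4 h (exact permutation p = 0.000649, adjusted p = 0.000866). With 3 libraries a group, no single pair of groups could reach a two-sided exact p below 0.1, so the pairs are described by their ranges.

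Flt1 RNA was also resolved by transcript, since its forms differ in function. The full-length form, Flt1-202, has 30 exons and a coding sequence of 1333 codons. The short form, Flt1-203, has 13 exons and 688 codons, 51.6% of the longest coding sequence, and ends before the membrane span and kinase domain. This is the layout of soluble FLT1. The coding sequences are the same for 1972 bases, and the forms part in exon 13, where Flt1-203 reads on past the splice site while Flt1-202 continues in exon 14. The stretch is on the minus strand of GRCm38, with the last shared bases at chr5:147639225-147639254, the own bases of Flt1-203 at chr5:147639130-147639224, and those of Flt1-202 at chr5:147634429-147634523. It is printed 5′ to 3′ because it shows what tells the forms apart, with 30 shared bases in lower case and the following 95 bases of each form in capitals. The capitals of Flt1-203 include its stop codon.
Flt1-202: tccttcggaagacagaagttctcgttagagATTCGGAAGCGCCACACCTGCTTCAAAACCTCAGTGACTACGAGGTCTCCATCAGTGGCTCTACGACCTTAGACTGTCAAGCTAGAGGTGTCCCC
Flt1-203: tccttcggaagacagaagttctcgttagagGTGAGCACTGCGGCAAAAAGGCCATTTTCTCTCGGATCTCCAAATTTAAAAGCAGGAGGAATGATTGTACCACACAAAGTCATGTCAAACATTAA

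Of the TPM of the coding Flt1 transcripts, the short form held 32.8%, 32.6%, and 32.8% in the PBS libraries, 31.9%, 32.5%, and 32.9% at LPS 15 min, 31.7%, 32.2%, and 32.7% at 30 min, and 24.4%, 24.8%, and 24.6% at 4 h. The first 3 groups overlapped, and the 4 h libraries lay below them, with a mean of 24.6% ± 0.211 against 32.8% ± 0.123 in PBS (SD, n = 3, exact permutation test over the 4 groups, p = 0.00526, adjusted p = 0.00526). In CPM, Flt1-203 had 588, 589.7, and 583 in PBS and 399, 404, and 395 at 4 h, while Flt1-202 had 1321, 1342, and 1310.1 in PBS and 1367, 1349, and 1341 at 4 h. The log2 difference of the short form at 4 h was -0.55 (SE 0.021), not past the fold test (adjusted p = 0.981) but past the test against no change (adjusted p = 6.60e-09), and that of the full-length form was 0.03 (SE 0.015). Set against the change of the gene as a whole with edgeR's diffSpliceDGE, the short form was 0.43 lower on the log2 scale. Its adjusted p of 0.0563 missed the threshold, where 1.94% of 41440 transcripts were called. The full-length form was 0.16 higher on that scale. The change of the gene as a whole includes the short form itself. The forms share their first exons, and the split of those reads between them is an estimate by Salmon.

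**Figure D4:**
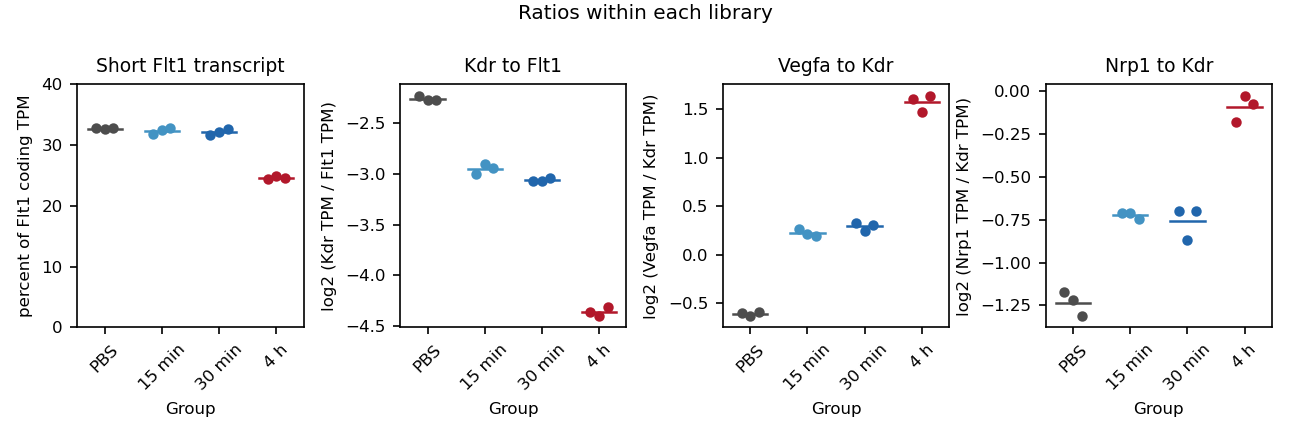
Values formed within each library, by group, with lines at the mean of 3: the percent of coding Flt1 TPM in the short form (y axis from 0), and the log2 TPM ratios of Kdr to Flt1, Vegfa to Kdr, and Nrp1 to Kdr. The short form stood at 24.4% to 24.8% at LPS 4 h against 31.7% to 32.9% in all other libraries. Vegfa TPM includes retained-intron forms, which took a large part of it.

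For Kdr, Flt4, Nrp1, Vegfc, and Pgf, 1 transcript each held 81.8% to 99.8% of the gene's TPM in PBS, whereas Vegfb-201 held 61.1% and Vegfa-202 held 30.7% of theirs. Of 45 member transcripts 30 could be tested, and the fold test called 1 at 15 min (Kdr-201), 2 at 30 min (Kdr-201 and Vegfc-201), and 5 at 4 h (Kdr-201, Vegfc-201, Nrp1-201, Pgf-201, and Flt4-201). The call of Vegfc-201 at 30 min lay at the threshold (adjusted p = 0.04999 in the fold test), and the count there was 1 under several alternatives. The shares of all transcripts called were 1.07%, 1.61%, and 17.9%. Nrp2 was split among Nrp2-202, Nrp2-204, and Nrp2-205, whose mean shares were 36.3%, 34.9%, and 23.5% in PBS and 36.6%, 31.4%, and 22.04% at 4 h.

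The members lie on 7 chromosomes of GRCm38. Vegfa is at chr17:46016993-46032369, Vegfb at chr19:6982473-6987651, Vegfc at chr8:54077606-54187096, Pgf at chr12:85166635-85177790, Kdr at chr5:75932827-75978458, Flt1 at chr5:147561604-147726011, Flt4 at chr11:49609263-49652739, Nrp1 at chr8:128358604-128503363, and Nrp2 at chr1:62703285-62818695. Promoter sequences from RefSeq (GRCm38.p6) were found for all 9, and the 250 bases before the RefSeq start site were searched on both strands for 4 motifs. That site was 416 bases from the start of the most abundant transcript for Flt4, 385 for Nrp2, and 211 for Nrp1, and at most 74 for the others. The Flt4 window lies inside the gene, past the start of Flt4-201. The Pgf and Nrp1 windows also lie inside the gene spans given above, but before the starts of Pgf-201 and Nrp1-201. Those of Nrp2 and Kdr reach into their gene spans. The NF-kB consensus motif was matched once each in Kdr, Flt1, and Vegfa, and 7.25% of 32851 promoters held a match. The GC box GGGCGG, a binding motif of the SP1 family, was matched in all 9 members and in 32.7% of promoters. The AP-1 motif TGANTCA (6.75% of promoters) and the core of the hypoxia response element ACGTG (16.6%) were not matched in any of these windows. The promoters of Kdr, the receptor that fell furthest, of Flt1, which did not pass the test, and of Pgf, the ligand that rose, are printed 5′ to 3′ with NF-kB and GC box matches in capitals. All 3 lie on the minus strand, Kdr at chr5:75978456-75978705, Flt1 at chr5:147726012-147726261, and Pgf at chr12:85177314-85177563.
Kdr: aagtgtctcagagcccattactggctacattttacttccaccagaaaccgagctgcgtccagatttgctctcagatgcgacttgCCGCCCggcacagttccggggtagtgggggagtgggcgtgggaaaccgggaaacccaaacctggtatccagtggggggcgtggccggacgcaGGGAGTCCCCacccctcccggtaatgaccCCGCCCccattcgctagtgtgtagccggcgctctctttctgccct
Flt1: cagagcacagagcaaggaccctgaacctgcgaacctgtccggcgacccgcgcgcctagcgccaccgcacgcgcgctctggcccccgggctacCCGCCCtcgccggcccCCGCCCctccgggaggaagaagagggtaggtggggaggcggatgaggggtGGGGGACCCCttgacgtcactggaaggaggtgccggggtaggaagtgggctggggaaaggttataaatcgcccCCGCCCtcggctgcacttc
Pgf: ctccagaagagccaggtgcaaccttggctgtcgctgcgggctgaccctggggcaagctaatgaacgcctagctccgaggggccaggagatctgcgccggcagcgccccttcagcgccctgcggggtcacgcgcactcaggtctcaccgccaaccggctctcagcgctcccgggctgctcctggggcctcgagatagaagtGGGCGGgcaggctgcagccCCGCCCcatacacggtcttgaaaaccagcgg
The NF-kB match in Kdr lies 74 to 65 bases before the start and that in Flt1 92 to 83 bases before it. Of the genes with a match, Kdr fell at every time, and Flt1 and Vegfa did not pass the fold test with TMM scaling. Pgf had GC boxes but no match to the NF-kB motif in this window. Whether these motifs bear on the changes was not tested. A match of letters says nothing of binding.

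The levels at LPS 4 h depended on the scaling of the libraries. The TMM factors averaged 1.17 in PBS, 1.15 at 15 min, 1.04 at 30 min, and 0.717 at 4 h. With library size alone, the median log2 difference of all genes at 4 h against PBS was -0.71, with scaling to Actb, Gapdh, and Rplp0 it was -0.93, and with scaling to the endothelial markers it was 0.87. Kdr fell under all of these, with log2 differences of -2.89, -3.11, and -1.30, and Pgf rose under all, with 1.24, 1.02, and 2.82. Vegfb, not called with TMM, was called lower with library size (-1.35, adjusted p = 3.64e-09) and with the reference genes (-1.57, adjusted p = 2.57e-11) and was 0.24 with endothelial scaling, not past the edgeR fold test. Flt4 was no longer called with library size (0.29) or the reference genes (0.07). Vegfc and Nrp1 were no longer called with endothelial scaling (-0.62, adjusted p = 0.193, and -0.17). The levels of Flt1 and Vegfa turned with the scaling: with library size they fell (-0.78 and -0.80), and with endothelial scaling they rose (0.81 and 0.78). Nrp2 was 0.22 with TMM, -0.49 with library size, -0.71 with the reference genes, and 1.10 with endothelial scaling, and the last of these differences passed the test upward while that with the reference genes passed it downward. The split of the calls moved with the scaling. Of the members, 2 were called higher and 3 lower at 4 h with TMM, 1 and 6 with library size, 1 and 7 with the reference genes, and 5 and 1 with endothelial scaling. Over all genes the corresponding calls were 3636 higher and 2637 lower, 1907 and 8555, 1627 and 10588, and 10105 and 626. At 30 min, scaling to the reference genes moved the median of all genes to -0.58, with 334 genes called higher and 4169 lower, and 8 members were called lower.

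**Figure D5:**
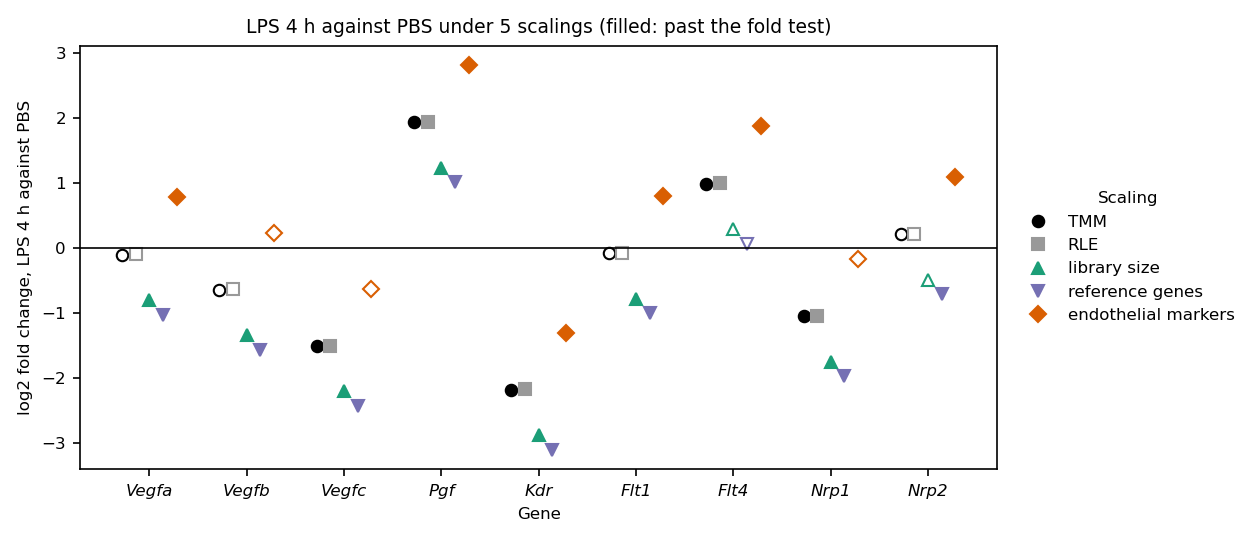
Log2 fold change of LPS 4 h against PBS (y axis) for each gene under 5 scalings of the libraries, with filled symbols past the fold test. Kdr lay below 0 and Pgf above 0 under all 5, whereas Flt1, Vegfa, Vegfb, and Nrp2 lay on both sides of 0.

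Other cells of the preparation also moved with time. At LPS 4 h, 10 of 18 endothelial markers fell and 4 rose, with a median log2 difference of -1.05, so that the falls of Kdr, Vegfc, and Nrp1 went along with those of Cldn5 (2362 to 475 CPM) and Tek (516 to 86.4 CPM) but not with Cdh5, which was higher (486 to 1889 CPM). All 7 tested neutrophil markers rose at 4 h, and the sum over their list was 4.50 to 5.15 CPM in PBS and 208 to 210 CPM at 4 h. Ly6g of that list had at most 0 counts in a PBS library and at most 9 at 4 h. The 6 choroid plexus markers summed to 10498 to 10938 CPM in PBS, 9355 to 9855 at 15 min, 13849 to 14189.9 at 30 min, and 17637 to 18525 at 4 h, mostly Ttr, and 3 of them rose at 4 h. Smooth muscle markers (6) and fibroblast markers (7) were lower at 15 min, with 3 called in each list and none higher, in the same group in which Nrp2 and Pgf fell. Their sums went from 2847 to 2884 CPM in PBS to 1865 to 1901 at 15 min for smooth muscle, and from 619 to 653 CPM to 415 to 431 for fibroblasts. Fibroblast markers stood at 358 to 377 CPM at 4 h, when 4 of 7 fell (median log2 -0.70 over the list), in the group in which Kdr, Vegfc, and Nrp1 fell. In the 15 min group, in which Kdr, Pgf, and Nrp2 fell, neuron markers summed to 569 to 589.97 CPM against 423 to 438 in PBS (2 of 7 rose), and astrocyte markers to 775 to 831 CPM against 993 to 1026 (2 of 10 fell). The part of these cells in the results on the 9 genes was not tested.

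Of the remaining marker lists, perivascular macrophage genes stood at 88.4 to 91.0 CPM in PBS and at 144 to 155 at LPS 4 h (3 of 5 rose), and astrocyte genes at 993 to 1026 and 1542 to 1615 CPM (3 of 10 rose and 2 fell). Pericyte genes went from 3871 to 3948 CPM to 3529 to 3641 (3 of 10 fell), and microglia genes from 200.2 to 203 CPM to 162 to 168 (3 of 8 fell). Neuron genes went from 423 to 438 CPM to 275 to 287 (2 of 7 fell), and genes of the oligodendrocyte lineage from 479.8 to 496 to 488 to 505 CPM (3 of 8 fell).

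Among the 17 genes for partners of the receptors, 1 fell at LPS 15 min and 0 were past the edgeR fold test at 30 min. At 4 h 6 rose and 6 fell, with a median log2 difference of -0.16. In the edgeR test against no change, 2 were higher and 7 lower at 30 min, beside 19.7% and 17.2% of all genes. In the fold test, 3.31% of all genes rose and 0.872% fell at 15 min, 3.78% and 0.799% at 30 min, and 19.0% and 13.8% at 4 h. These shares also stand beside the counts of the marker lists above and of each list below. The gene called at 15 min was Itgb3, an integrin subunit that pairs with KDR (12.8 to 6.01 CPM). At 4 h the largest rises were those of Angpt2 (20.2 to 151 CPM), a ligand that can block the TIE2 receptor, Ptpn1 (51.9 to 267 CPM), a phosphatase that acts on KDR, and Cdh5 (486 to 1889 CPM), which codes for VE-cadherin. The largest falls were those of Tek (516 to 86.4 CPM), the TIE2 gene itself, Ptprb (1587 to 325 CPM), a phosphatase of TIE2 and VE-cadherin, and Ephb4 (171 to 47.5 CPM), a venous receptor for ephrin-B2. The receptors Kdr and Tek thus fell in the same libraries in which the ligand genes Pgf and Angpt2 rose.

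Of 12 semaphorin and plexin genes that share the neuropilins, 2 rose at LPS 15 min, 1 rose at 30 min, and 1 rose and 1 fell at 4 h, so most were not called. Plxna2, a plexin that pairs with neuropilins, rose at all 3 times, from 117 CPM in PBS to 240.5, 229, and 522 CPM. Plxna3 rose at 15 min only among the fold tests (13.1 to 23.6 CPM), and Sema3g, a semaphorin of arterial endothelium, fell at 4 h (544 to 186 CPM).

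Of 45 genes of VEGF signalling inside the cell 44 were tested. At LPS 15 min 1 rose and 2 fell, at 30 min 1 rose, and at 4 h 17 rose and 8 fell, with a median log2 difference of 0.24. At 4 h 19.0% of all genes rose and 13.8% fell. Hspb1, a small heat shock protein phosphorylated downstream of p38, rose to 677 CPM at 15 min and 1395 CPM at 30 min, against 372 CPM in PBS. Sphk1, which makes sphingosine-1-phosphate, fell at 15 min (27.4 to 15.0 CPM) and rose at 4 h (253 CPM), as Pgf did. Plcg2 fell at 15 min (57.3 to 34.4 CPM). At 4 h Pla2g4a (41.6 to 207 CPM) and Map2k1 (54.1 to 217 CPM) rose, while Mapk3 (201 to 50.4 CPM), Plcg1 (275 to 86.2 CPM), and Casp9 (25.3 to 7.96 CPM) fell. Plcg1 codes for the phospholipase that binds activated KDR.

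A list of 20 endothelial genes known to rise with VEGF had 7 higher and 1 lower at LPS 15 min, 9 higher and 2 lower at 30 min, and 11 higher and 4 lower at 4 h, with median log2 differences of 0.31, 0.65, and 1.22. Several of them are immediate early genes that answer many stimuli. Nr4a1, a nuclear receptor, measured 39.1 CPM in PBS, and 337 and 1259 CPM at 15 and 30 min. Egr3, a zinc finger factor, had 12.1, 57.7, and 389 CPM in the same groups. Plaur, the urokinase receptor, had 7.24 CPM in PBS and 32.1, 149, and 776 CPM at the 3 times. At 4 h Rcan1, an inhibitor of calcineurin, rose from 33.3 to 608 CPM, and Dusp5, a phosphatase of ERK, from 1.78 to 26.9 CPM. The list was not uniform, since Aplnr, the apelin receptor, fell at all 3 times (17.5 CPM in PBS, 5.85, 5.03, and 0.524 after LPS), Unc5b fell at 30 min and 4 h (86.0 to 51.6 and 26.5 CPM), and Cxcr4 fell at 4 h (6.32 to 2.69 CPM). These rises were measured in libraries in which Kdr was lower and Vegfa not past the test. Whether VEGF signalling had a part in them was not tested.

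Of 13 genes for regulators of Vegfa RNA, 1 rose at LPS 15 min, 2 at 30 min, and 5 at 4 h, when 2 fell. Zfp36, whose protein binds AU-rich RNA and speeds its decay, had 44.3 CPM in PBS and 449.9, 1874, and 986 CPM at the 3 times after LPS. Hif1a, the oxygen-regulated activator of Vegfa, rose at 4 h from 74.4 to 733 CPM, while Vegfa itself measured 61.8 to 67.5 CPM there against 68.7 to 70.1 in PBS. Hif3a rose at 30 min (3.74 to 7.84 CPM), and at 4 h Zfp36l1 rose (234 to 423 CPM) while Egln1, an oxygen-sensing hydroxylase, fell (78.8 to 42.0 CPM) and Zfp36l2 fell (105 to 63.7 CPM).

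Of 8 genes tied to VEGF-C and lymphatic vessels, 0 were past the edgeR fold test at 15 min. In the test against no change 0 were higher and 3 lower there, beside 20.4% and 18.2% of all genes. In the fold test 1 rose and 1 fell at 30 min, and 3 rose and 1 fell at 4 h. The gene that fell at 30 min was Adamts3, a protease that processes VEGF-C, with a log2 difference of -2.12. It was under the mean count set for naming genes and is named after its values were seen. The others were Lyve1 (6.62 CPM in PBS, 15.1 at 30 min, and 12.8 at 4 h), Pdpn (17.4 to 77.8 CPM at 4 h), Adamts14 (11.6 to 19.8 CPM at 4 h), and Vegfd (8.94 to 2.78 CPM at 4 h). Lyve1 is also made by perivascular macrophages, and 3 of 5 marker genes of those cells rose at 4 h. Vegfd, the other FLT4 ligand, fell at 4 h as Vegfc did.

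Other genes followed the members across the 12 libraries. Pearson's r between log2 CPM values is given as a description, since the points share groups and libraries. Closest to Kdr were Mpzl1 (r = 0.997) and Cldn5 (0.996), closest to Vegfc were Frem2 (0.998) and Myct1 (0.990), and closest to Nrp1 were Cbx1 (0.993) and Efna1 (0.988). Pgf was nearest to Plpp3 (0.996) and Gm13889 (0.995), Flt4 to Glrx (0.998) and Git1 (0.998), and Nrp2 to St6gal1 (0.983) and Flna (0.981). For Flt1 the nearest were Leng8 (0.959) and Casq2 (0.959), and for Vegfb they were Dmac1 (0.985) and Stat6 (0.977). Vegfa had no near companion, with r = 0.826 for Gm30238 and 0.819 for Zfp865. Of 14587 genes compared, 0 had an r of at least 0.95 with Vegfa, against 422 with Kdr and 1879 with Flt4.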

How the data were processed

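Members were mapped by symbol to Ensembl genes of GRCm38, all 9 of them. The members and lists were chosen with earlier results of these data known. Groups were taken from the sample records. When in the day mice were injected, and when after PBS they were killed, is not given in the sources used here. Replicate libraries were separate pools of mice, and intervals cover the spread between these pools.

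The authors estimated transcript abundance with Salmon 1.2.1, made gene counts with tximport, and ran DESeq2 for normalization (GRCm38.p6). The estimated counts deposited by the authors are fragments per transcript, not normalized, and their TPM values also correct for length. The deposited gene table holds a normalized signal, that is counts divided by the authors by size factors and length factors, and it was used only for the limma alternatives and for a check. Of 140948 transcripts 139852 joined to the GENCODE M21 annotation, and the others held at most 0.850% of a library.

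Estimated counts were summed per gene and rounded. After filterByExpr (minimum count 10, total 15, share 0.7) and TMM scaling, all 12 libraries entered 1 quasi-likelihood fit in edgeR 4.0.16 under R 4.3.3, and glmTreat tested against 1.5-fold with Benjamini-Hochberg adjustment over all genes. The SE is the log2 fold change over the root of the quasi-likelihood F. Transcripts were fitted likewise over 49421 transcripts, with diffSpliceDGE for differences within a gene. Ratios and the short Flt1 share used exact two-sided permutation of libraries (scipy 1.17.1). The fits were checked on simulated data, with changes set between PBS and LPS 4 h. The gene fit called 87.1% of changes of log2 1.2 and 98.4% of those of log2 2. The transcript fit called only 22.2% and 51.5%, so a transcript not called may still have changed. Both fits had 0 false calls. The short forms of Flt1 were those whose coding sequence is under 80% of the longest. Promoters are from RefSeq.

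Alternatives were RLE factors, library size only, scaling to Actb, Gapdh, and Rplp0 or to 18 endothelial markers, no filter, a test against no change, the same with a log2 limit of 1.5, DESeq2 1.42.0, a length offset, a fit of each compared pair alone, the library number as a block, limma 3.58.1 with 1 or 10 added, estimated counts in place of TPM, and leaving out each library. Apart from the members, the named genes were up to 3 called ones per list and direction that had the largest changes at a mean count of 50 or more, in each comparison with PBS, and the 2 genes closest to each member. Markers named with their levels were chosen from the marker lists after their values were seen.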

Additional observations from a re-analysis of the deposited data

Results flagged for a closer look

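Of the comparisons between LPS times, those of 30 min with 4 h were picked out for 3 genes because the change from PBS differed between these times by a direct test in edgeR. Pgf was 2.38 higher at 4 h than at 30 min on the log2 scale (SE 0.074, adjusted p = 1.06e-16), from 10.4 to 12.3 CPM to 56.6 to 60.6 CPM, higher in 3 of 3 libraries. Kdr had a log2 difference of -1.19 (SE 0.032, adjusted p = 7.14e-15), lower in 3 of 3 libraries. Flt4 had a log2 difference of 1.11 (SE 0.035, adjusted p = 3.24e-13), higher in 3 of 3. With endothelial scaling the Kdr difference was -0.35 and no longer past the test, and with library size alone the Flt4 difference was 0.57 and no longer past the test, while that of Pgf passed under every alternative run.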

How the results depend on the processing

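Of 665 values of 35 fold changes of the members under the alternatives, 586 kept direction and side of the threshold, 28 lost and 40 gained a call, and 11 changed sign. The sign changes were those of Vegfa at 15 min with a length offset (0.0352) and with limma (0.0188 with 1 added, 0.0187 with 10 added), of Nrp2 at 4 h with library size (-0.49) and reference genes (-0.71), of Vegfa (0.78), Vegfb (0.24), and Flt1 (0.81) at 4 h with endothelial scaling, of Nrp2 from 15 to 30 min with reference genes (-0.0195), and of Vegfc (0.163) and Nrp1 (0.304) from 30 min to 4 h with endothelial scaling. Apart from the all-gene shifts given for the scalings, the cause was not tested.

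The count of called members, main values 3, 2, 5, 0, and 3 in the 5 comparisons, became 7, 8, 8, 6, and 8 in the test against no change and 0, 0, 3, and 1 (15 min, 30 min, 4 h, and 30 min to 4 h) with a log2 limit of 1.5. Reference genes gave 8 at 30 min, 8 at 4 h, 3 from 15 to 30 min, and 6 from 30 min to 4 h, while the calls over all genes were 4503, 12215, 2770, and 7216 and the median gene moved to -0.58, -0.93, -0.47, and -0.40. From 30 min to 4 h library size and endothelial scaling gave 5 each (1 higher and 4 lower, and 5 higher and 0 lower), with the median gene at -0.58 and 0.80. At 15 min limma gave 1 with either pseudocount. Leaving out 1 library gave 1 to 3 at 15 min, 2 to 2 at 30 min, 5 to 6 at 4 h, 0 to 0 from 15 to 30 min, and 3 to 4 from 30 min to 4 h. The count of 1 at 15 min was without LPS 15 min replicate 2, when Pgf and Nrp2 were lost. Member transcripts called at 15 min were 2 with RLE factors and 8 in the test against no change, the latter beside 9.46% of all transcripts. At 30 min they were 1 without a filter and 7 in the test against no change (beside 8.97% of all transcripts), and 1 to 2 on leaving out a library. At 4 h they were 9 with library size, a scaling under which the median gene moved to -0.71. All 4 within-library values kept their direction and stayed below the threshold under the alternatives run.

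Same-numbered libraries did not deviate together (18 correlations, -0.126 to 0.0762). With the number as a replicate block, called members stayed at 3, 2, 5, 0, and 3, and member transcripts at 30 min went from 2 to 1.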
